A study of Mus musculus with 12 samples.

Results

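Bone morphogenetic protein (BMP) signaling was described here through 9 genes of the 25230 listed in the deposited counts. They were chosen by name, with earlier results of these data known. The set holds a ligand (Bmp4), a receptor (Bmpr2), a pseudoreceptor (Bambi) and extracellular modulators (Grem1 and Bmper). It also holds the inhibitor of DNA binding genes that BMP signals switch on (Id1, Id2, Id3 and Id4). Counts of members beside shares of all genes therefore describe the set and are no test of it. All 9 had counts, 8 of them passed the limit of RPKM (CPM per kilobase of exon, where CPM are counts scaled to a fixed library total) above 1 in at least 1 library, and Bambi did not. Id1, Id3, Bmp4, Bmpr2 and Bmper were above the limit in all 12 libraries. Id2 was above it in 9 libraries, Id4 in 7 and Grem1 in 6, so these 3 passed through the groups in which they were high.

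The RNA-seq libraries came from primary mouse mesangial cells (MMC), the contractile cells that hold the capillary tuft of the kidney glomerulus together. WT MMC and MMC from lncMGC-KO5 mice were kept either in serum-depleted medium without TGF-β (SD) or with 10 ng/ml TGF-β (TGF) for 24 hours. With 3 libraries each, these were WT-SD and WT-TGF and, from the mutant line, KO-SD and KO-TGF. KO5 is 1 mouse line on a C57BL/6 background, in which Cas9 had cut a short stretch out of the genome near the start of lncMGC, the long non-coding RNA that hosts the miR-379 megacluster. Both genotypes were grown in serum before depletion, the cells of each came from pooled glomeruli, and nothing in the labels says whether the 3 libraries of a group were separate cultures, so p-values measure the spread between these libraries.

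BMP ligands are secreted dimers of the TGF-β family that bring type I and type II serine/threonine kinase receptors together at the cell surface. The receptors phosphorylate SMAD1, SMAD5 and SMAD9, which enter the nucleus with SMAD4 and switch on targets that include the ID genes, while TGF-β itself acts mainly through SMAD2 and SMAD3. ID proteins have a helix-loop-helix without the DNA-binding region and hold E proteins away from DNA, and extracellular antagonists such as gremlin 1 bind the ligand before it reaches the receptor. In the glomerulus, BMP signals are known mostly as a counterweight to TGF-β, and gremlin 1 is known from mesangial cells kept in high glucose.

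Each library had between 19898050 and 22827706 counts on genes. No value carrying the name lncMGC was analysed here. Rian and Mirg share exons with lncMGC, and their counts were higher in the libraries labelled KO, not lower. Rian was at 41.6 ± 2.62 CPM (SD, n = 3) in WT-SD, 76.4 ± 3.20 in WT-TGF, 70.0 ± 0.926 in KO-SD and 100.5 ± 5.74 in KO-TGF, and Mirg at 2.29 ± 0.303, 3.6 ± 0.152, 3.67 ± 0.552 and 4.32 ± 0.552. These 2 genes were read from an edgeR fit of the 18565 genes with a count, not the main fit. There, KO was higher for Rian by 0.75 on the log2 scale in SD (adjusted p = 2.8e-65 by edgeR). With TGF-β, Rian was higher in KO by 0.39 (adjusted p = 2.77e-22 by edgeR). Mirg was higher in KO by 0.68 in SD (adjusted p = 6.51e-05 by edgeR), while its 0.26 with TGF-β was not called. The genotype labels thus have no check from loss of the targeted transcript, and every direction between KO and WT below is one between libraries labelled KO and WT. The summed CPM (with library sizes scaled by TMM) of 10 mesangial and contractile markers was 2591 to 2739 in WT-SD, 5857 to 5998 in WT-TGF, 5122 to 5310 in KO-SD and 11229 to 11316 in KO-TGF, most of it Acta2 and Tagln. Within that list, Des went the other way. It was at 7.53 ± 0.919 CPM (SD, n = 3) in WT-SD, 0.53 ± 0.024 in KO-SD and 0.25 ± 0.109 in KO-TGF. Itga8 had 2.84 ± 0.246 CPM in WT-SD and 3.05 ± 0.351 in KO-SD, and these groups overlapped. With TGF-β, Itga8 had 1.61 ± 0.239 CPM in WT and 0.646 ± 0.0493 in KO. Thy1 was at 0 in every library of WT-SD and KO-SD. Markers of other cell types moved with the groups. The summed CPM of 6 macrophage markers was 32.8 to 36.2 in WT-SD, 17.8 to 21.0 in WT-TGF, 8.15 to 9.78 in KO-SD, where Adgre1 was at 0, and 2.32 to 2.66 in KO-TGF. For 7 tubular markers it was 71.0 to 77.0, 18.0 to 19.4, 19.2 to 22.3 and 4.37 to 4.63 in the same order, with Umod and Slc34a1 at 0 throughout. For 6 podocyte markers it was 452 to 460, 457 to 476, 218 to 228 and 208 to 223. For 8 endothelial markers it was 32.6 to 33.0, 20.5 to 22.9, 17.5 to 18.8 and 9.95 to 11.7, nearly all of it Ehd3, with Cdh5 at 0 in every group but KO-SD. The share of reads outside annotated exons was 15.2% to 15.4% in WT-SD and 10.3% to 10.9% in KO-TGF. The part of the marker and read shifts in the results that follow was not tested. KO-SD replicate 1 stood somewhat apart from the other KO-SD libraries, since its chi-square against them, divided by the degrees of freedom, was 5.20 and 4.91, where the other pairs of replicates gave 1.33 to 2.95.

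The first comparison asked how BMP genes respond to TGF-β in WT MMC. TGF-β lowered all 4 ID genes, the ligand Bmp4 and the antagonist Grem1, raised the receptor Bmpr2 and gave no call for Bmper. Thus 6 of the 8 members tested were lower and 1 was higher at a false discovery rate (FDR) below 5% in edgeR's quasi-likelihood fit, where 33.4% of the 11479 genes tested were lower and 39.3% higher. Id2 and Grem1 were lower by more than 2-fold, which 5.33% of the genes tested were. In bulk samples, fewer cells of a type and less RNA per cell cannot be told apart, and that holds for every difference given here. The median log2 fold change of the 8 members was -0.77 and that of all genes tested 0.03. In KO MMC, TGF-β also lowered 6 members and raised 1, against 37.8% and 36.4% of all genes tested, but the 6 were not the same: Bmper was among them and Id4 was not. Id2, Bmp4 and Grem1 were lower by more than 2-fold in KO, as were 8.82% of the genes tested, and the median of the members was -0.75 against -0.01. Bmpr2 was the gene that rose in both.

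The other pair of comparisons asked how the KO5 cells differ from WT in each condition. In SD, 7 members were lower in KO, among them Bmpr2, whose call was lost in DESeq2 and without any 1 of 7 libraries, and 1, Bmper, was higher, where 21.6% of the genes tested were lower and 35.6% higher. Id4 was lower by more than 2-fold, as were 2.98% of the genes. With TGF-β, 6 members were lower in KO and the other 2, Id1 and Bmper, passed in neither direction, where 26.3% of the genes tested were lower and 28.9% higher. Id2, Id4 and Bmp4 were lower by more than 2-fold, as were 4.51% of the genes. The medians of the members were -0.43 in SD and -0.59 with TGF-β, those of all genes tested 0.05 and 0.01. These comparisons share libraries with the first pair, so the values are set side by side and no likeness between them was computed.

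**Figure D1:**
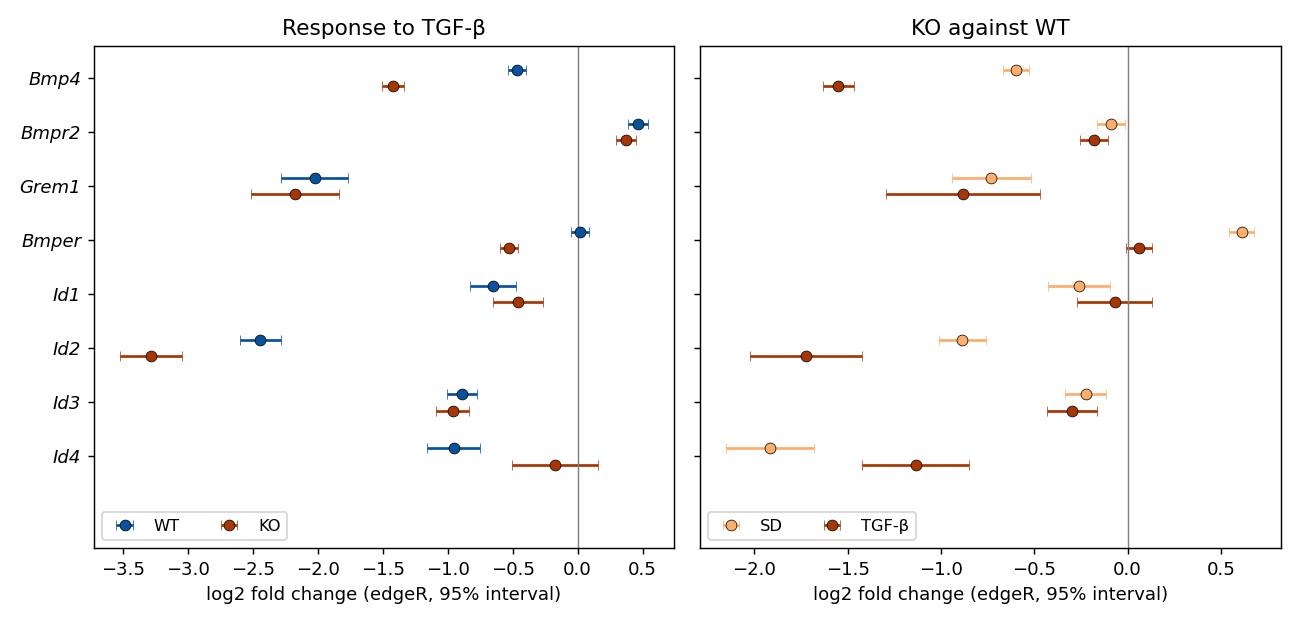
Log2 fold change of the 8 members tested (x axis, edgeR, bars are 95% intervals, 3 libraries per group) for the response to TGF-β in WT and KO (left) and for KO against WT in SD and with TGF-β (right). Id2 and Grem1 lie furthest left in the TGF-β panel, at -2.44 and -2.02 in WT, Bmpr2 lies right of 0 in both genotypes, and Bmp4 lies further left in KO than in WT.

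Bmp4 (gene 12159, chr14:46383520-46390669 of GRCm38, minus strand) encodes the ligand of the set. In WT-SD its level was 139, 142 and 138 CPM, and in WT-TGF it was 98.8, 99.95 and 105 CPM. In KO-SD it was 96.5, 90.2 and 90.5 CPM, and in KO-TGF 34.5, 34.9 and 34.3 CPM. The 4 groups did not overlap, with WT-SD highest, WT-TGF and KO-SD close to each other and KO-TGF lowest by a wide margin. TGF-β lowered Bmp4 by 1.38-fold in WT (log2 fold change -0.47, SE 0.034, adjusted p = 1.37e-13 by edgeR) and by 2.67-fold in KO (-1.42, SE 0.041, adjusted p = 1.07e-23). The KO cells had 1.52-fold less than WT in SD (-0.60, adjusted p = 8.67e-16 by edgeR) and 2.93-fold less with TGF-β (-1.55, adjusted p = 3.75e-24). The difference between the responses, KO minus WT, was itself called, at -0.95 on the log2 scale (SE 0.054, adjusted p = 8.22e-15 by edgeR), so the fall with TGF-β was larger in KO. Such a difference was called for 4 of the 8 members, 1 positive (Id4) and 3 negative (Bmp4, Id2 and Bmper), where 7.69% of the genes tested had a positive and 18.7% a negative one.

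Per length, Bmp4 was the most abundant BMP ligand of the list in each group, at 62.3 ± 0.959 RPKM (SD, n = 3) in WT-SD and 15.4 ± 0.121 in KO-TGF. Of 14 ligands listed, 12 had a count and only Bmp4 and Bmp6 passed the RPKM limit. Bmp6, a close relative of Bmp5 and Bmp7, was at 57.9 ± 0.678 CPM in WT-SD, 20.4 ± 0.188 in WT-TGF, 31.5 ± 2.04 in KO-SD and 12.6 ± 1.22 in KO-TGF. It fell with TGF-β in WT (log2 fold change -1.50, adjusted p = 1.10e-21 by edgeR) and in KO (-1.32, adjusted p = 7.75e-18), and the difference between those responses was not called (0.18, adjusted p = 0.129). The sum of Bmp4 and Bmp6 was 77.1 ± 0.785 RPKM in WT-SD, 50.3 ± 1.45 in WT-TGF, 49.2 ± 1.46 in KO-SD and 18.6 ± 0.258 in KO-TGF. Bmp7, the ligand most studied in the kidney, was at or under 0.818 CPM in the mean of each group, and Bmp2 was at 2.65 ± 0.207 CPM in WT-SD and 0.628 ± 0.137 in KO-TGF, both under the RPKM limit.

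Bmpr2 (gene 12168, chr1:59763400-59879014, plus strand) encodes the type II receptor for BMPs. It had 472, 467 and 445 CPM in WT-SD and 665, 618 and 628 in WT-TGF. In KO it had 474, 413 and 416 CPM in SD and 569, 578 and 542 with TGF-β. Every library with TGF-β was above every SD library, while the SD groups of both genotypes overlapped. The rise was 1.38-fold in WT (log2 fold change 0.46, SE 0.037, adjusted p = 1.44e-12 by edgeR) and 1.30-fold in KO (0.37, SE 0.037, adjusted p = 2.07e-10), and the difference between those responses was not called (-0.09, 95% interval -0.20 to 0.02). With TGF-β, KO had 1.13-fold less Bmpr2 than WT (-0.18, adjusted p = 0.00013). In SD the difference was -0.09 (adjusted p = 0.045 by edgeR). That call was lost in DESeq2 (-0.13, adjusted p = 0.054) and without any 1 of WT-SD replicates 1 and 2, WT-TGF replicate 3, KO-SD replicates 2 and 3 or KO-TGF replicates 1 and 2, where the adjusted p ranged from 0.054 to 0.258. Without KO-SD replicate 1 it was -0.16 (adjusted p = 5.3e-06).

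Of the other receptors, Acvr1, a type I receptor of BMPs, rose from 87.3 ± 2.79 CPM in WT-SD to 205 ± 4.26 in WT-TGF and from 99.1 ± 1.88 in KO-SD to 239 ± 7.76 in KO-TGF, by 2.34-fold and 2.41-fold (adjusted p = 3.28e-25 and 9.69e-26 by edgeR). Bmpr1b, another type I receptor, was at 4.43 ± 0.527 CPM in WT-SD, 4.69 ± 0.405 in WT-TGF, 5.48 ± 0.396 in KO-SD and 9.73 ± 1.11 in KO-TGF. It was 2.07-fold higher in KO-TGF than in WT-TGF (adjusted p = 3.44e-09 by edgeR), and its response was larger in KO (difference 0.74, adjusted p = 0.0013). In group means Bmpr1b was above 1 RPKM only in KO-TGF (1.63 RPKM), so it was tested through the group in which it was high. Across the 8 receptors and co-receptors tested of 12 listed, Bmpr2 included, 3 were higher and 4 lower with TGF-β in WT, where 39.3% of all genes tested were higher and 33.4% lower, and 3 were higher and 2 lower in KO, where 36.4% and 37.8% were. These counts depend on the scaling. With library size alone, Bmpr1a in WT turned from 0.11 to -0.08 (adjusted p = 0.016 by edgeR). In KO, Bmpr1a, Acvr2a and Rgmb were then called lower (-0.19, -0.19 and -0.29).

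Bambi (gene 68010, chr18:3507923-3516404, plus strand) encodes a receptor-like protein without a kinase, which blocks BMP and TGF-β receptors. Per length it was the least abundant member in every group, at most 0.389 RPKM, with 21 to 43 counts per library. Its level was 0.94, 0.979 and 1.43 CPM in WT-SD, 1.28, 1.48 and 1.73 in WT-TGF, 1.38, 1.74 and 1.97 in KO-SD and 1.84, 1.51 and 1.60 in KO-TGF. The ranges of WT-SD, WT-TGF and KO-SD overlapped pairwise. In a fit of the 18565 genes with a count, Bambi was 1.52-fold higher in KO-SD than in WT-SD (log2 fold change 0.61, SE 0.226, adjusted p = 0.0197 by edgeR), where 23.4% of those genes were higher. The responses to TGF-β were 0.42 in WT (95% interval -0.04 to 0.88) and -0.04 in KO (-0.47 to 0.38), neither of them called.

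**Figure D2:**
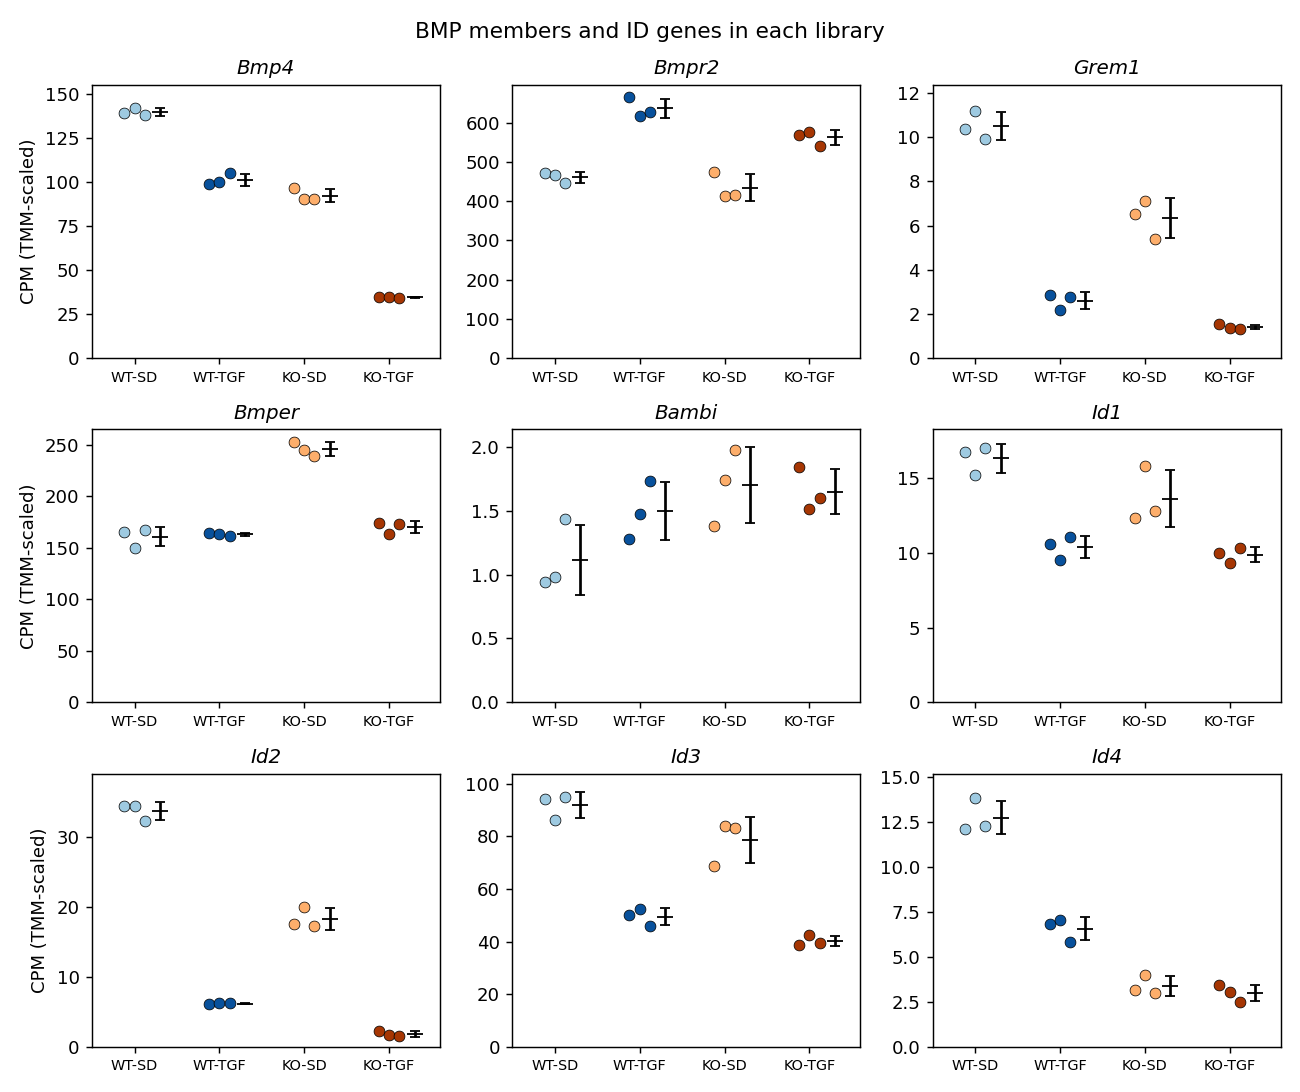
CPM (TMM-scaled, y axis from 0, a scale per gene) of each of the 9 members in each library of the 4 groups. Points are libraries in order of replicate number, and the mark beside them is the mean with the SD over 3 libraries. The KO-TGF libraries are lowest for Bmp4 (34.3 to 34.9 CPM), Id2 and Grem1, and Bmper stands out in KO-SD (239 to 252 CPM). Bambi overlaps between all pairs of groups but WT-SD and KO-TGF.

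Grem1 (gene 23892, chr2:113746164-113758646, minus strand) encodes gremlin 1, which binds BMP2, BMP4 and BMP7. It had 10.4, 11.2 and 9.93 CPM in WT-SD and 2.84, 2.15 and 2.77 in WT-TGF. In KO it had 6.54, 7.12 and 5.37 CPM in SD and 1.52, 1.35 and 1.33 with TGF-β, the last from 25 to 28 counts per library. The groups did not overlap, in the order WT-SD, KO-SD, WT-TGF and KO-TGF. Grem1 fell 4.07-fold with TGF-β in WT (log2 fold change -2.02, SE 0.125, adjusted p = 3.63e-15 by edgeR) and 4.51-fold in KO (-2.17, SE 0.166, adjusted p = 4.74e-13). It was lower in KO in SD (-0.73, adjusted p = 4.51e-07) and with TGF-β (-0.88, adjusted p = 0.00043). The difference between the responses was -0.15 and not called, with a 95% interval from -0.62 to 0.32.

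Per length, Bmp4 was above Grem1 in every library, and the ratio of their RPKM was 24.6 ± 1.11 (SD, n = 3) in WT-SD, 27.2 ± 3.86 in KO-SD, 73.3 ± 11.2 in WT-TGF and 45.8 ± 3.27 in KO-TGF. The SD groups overlapped in this ratio, and both TGF-β groups lay above them. With 3 libraries against 3, an exact two-sided permutation test cannot go below p = 0.1, and sums and ratios over members are given with no test.

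**Figure D3:**
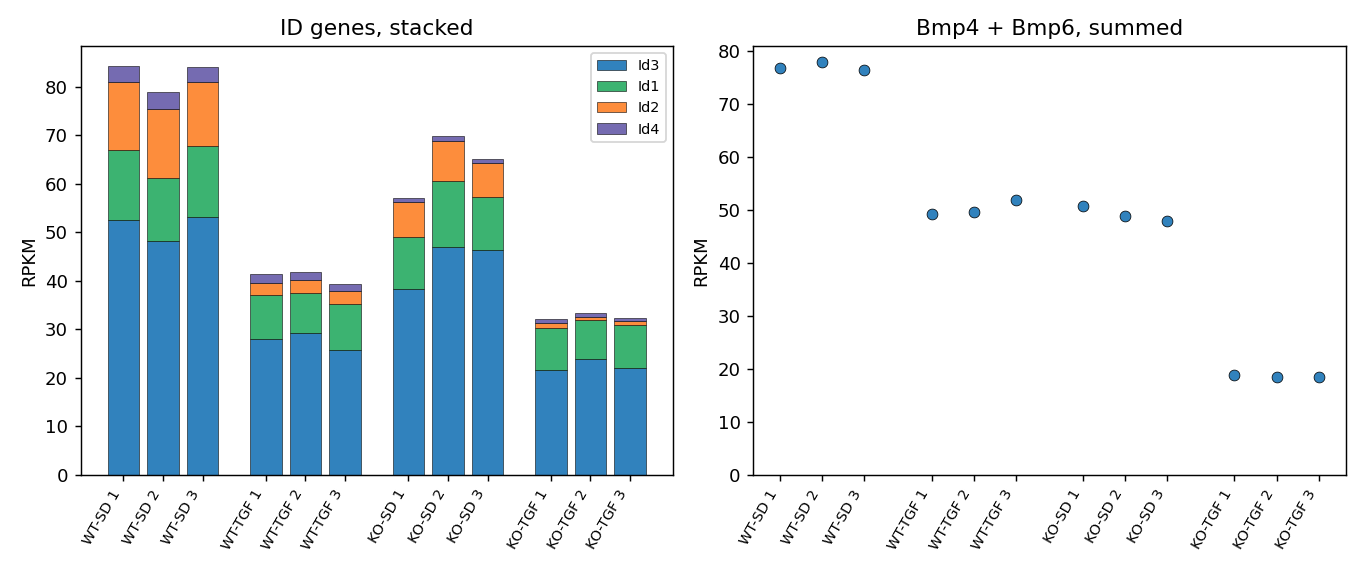
RPKM in each library. Left, the 4 ID genes stacked, where the bar height is their sum. Right, the sum of the ligands Bmp4 and Bmp6. The ID bars are highest in WT-SD (79.0 to 84.3 RPKM) and lowest in KO-TGF (32.1 to 33.3), and the ligand sum is highest in WT-SD (76.5 to 78.0) and lowest in KO-TGF (18.4 to 18.9).

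Bmper (gene 73230, chr9:23223076-23485200, plus strand) encodes a secreted protein that binds BMPs and can dampen or favour their signal. Its level was 165, 150.0 and 168 CPM in WT-SD, 164, 164 and 161 in WT-TGF, 252, 245 and 239 in KO-SD and 174, 163 and 173 in KO-TGF. The KO-SD libraries stood above all others, and the other 3 groups lay within 150.0 to 174 CPM. Bmper was 1.53-fold higher in KO-SD than in WT-SD (log2 fold change 0.61, SE 0.033, adjusted p = 2.89e-16 by edgeR) and fell 1.44-fold with TGF-β in KO (-0.53, SE 0.033, adjusted p = 4.56e-15). In WT the response was 0.02 (95% interval -0.05 to 0.09), and with library size alone as the scaling it was -0.17 (adjusted p = 3.32e-05), so no direction is given. The responses differed by -0.55 (SE 0.048, adjusted p = 1.38e-10 by edgeR), and with TGF-β the genotypes differed by 0.06 (95% interval -0.01 to 0.13). Per length, Bmper was above Bmp4 in KO, where the ratio of Bmp4 to Bmper was 0.809 ± 0.0153 (SD, n = 3) in SD and 0.438 ± 0.0187 with TGF-β, and below it in WT, where the ratio was 1.88 ± 0.143 and 1.34 ± 0.0588.

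Of 19 extracellular antagonists and modulators listed, 12 were tested, Grem1 and Bmper included. With TGF-β, 3 were higher and 8 lower in each genotype, where 39.3% of all genes tested were higher and 33.4% lower in WT and 36.4% and 37.8% in KO. Fstl3, a follistatin-like protein that binds activins above all, had the largest rise in fold of the 12, from 11.4 ± 0.462 to 108 ± 0.748 CPM in WT, and in KO it went from 17.4 ± 1.23 to 99.7 ± 1.67 (9.45-fold and 5.74-fold, adjusted p = 3.19e-31 and 4.84e-29 by edgeR). Chrdl1, a chordin-like BMP antagonist, fell from 15.8 ± 2.02 to 2.63 ± 0.209 CPM in WT, and in KO from 27.9 ± 3.01 to 4.24 ± 0.794 (adjusted p = 2.36e-17 and 8.15e-20). Unlike Grem1, Chrdl1 was higher in KO than in WT, by 0.82 on the log2 scale in SD and 0.69 with TGF-β (adjusted p = 4.69e-10 and 0.00176 by edgeR). Chrdl1 passed the RPKM limit through the SD groups, in which it was high (means of 2.34 RPKM in WT-SD and 4.13 in KO-SD). Noggin (Nog) was between 0.556 and 0.629 CPM in the mean of every group and under the RPKM limit.

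Promoter sequences are shown for the ID genes because BMP-activated SMADs are known to act there, and for Grem1, which fell with them in WT. Bmp4 also fell and its promoter was searched, but its sequence is not printed. RefSeq promoters of build GRCm38.p6 were matched for 7 of the 9 members, all but Id1 and Bambi. Each line gives the 250 bases before the RefSeq start site. GGCGCC (a GC-rich element that SMADs of the BMP branch can bind) and CAGAC (the SMAD box) are in capitals. Both strands were searched, so that a match on the other strand reads GTCTG. The gene positions printed with each member are from GENCODE vM21. Its spans of Id2 and Id3 start further upstream than in RefSeq and take in the stretches shown.
Id2, chr12:25096093-25096342, minus strand: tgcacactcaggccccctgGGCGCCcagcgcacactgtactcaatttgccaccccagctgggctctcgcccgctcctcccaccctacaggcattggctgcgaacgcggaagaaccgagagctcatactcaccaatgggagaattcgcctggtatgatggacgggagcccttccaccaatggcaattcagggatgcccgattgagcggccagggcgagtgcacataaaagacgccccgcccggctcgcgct
Id3, chr4:136143572-136143821, plus strand: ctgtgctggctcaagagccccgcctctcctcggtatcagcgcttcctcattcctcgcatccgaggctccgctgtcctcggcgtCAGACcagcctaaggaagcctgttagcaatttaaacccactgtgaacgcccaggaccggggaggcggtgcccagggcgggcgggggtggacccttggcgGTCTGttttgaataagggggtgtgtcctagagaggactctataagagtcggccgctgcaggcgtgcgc
Id4, chr13:48260866-48261115, plus strand: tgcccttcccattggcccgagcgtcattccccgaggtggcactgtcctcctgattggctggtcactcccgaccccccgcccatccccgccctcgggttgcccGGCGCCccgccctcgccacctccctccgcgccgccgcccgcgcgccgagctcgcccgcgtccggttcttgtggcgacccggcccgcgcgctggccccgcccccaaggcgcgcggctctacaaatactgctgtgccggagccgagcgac
Grem1, chr2:113758649-113758898, minus strand: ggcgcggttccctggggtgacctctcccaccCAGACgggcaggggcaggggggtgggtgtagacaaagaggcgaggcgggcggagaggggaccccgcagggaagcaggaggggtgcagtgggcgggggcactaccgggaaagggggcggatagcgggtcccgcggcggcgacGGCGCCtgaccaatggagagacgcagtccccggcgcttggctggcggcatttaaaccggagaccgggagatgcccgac
GGCGCC began 231 bases before the start site in Id2, 148 in Id4 and 78 in Grem1, and Bmpr2, whose level rose, had it at 105 bases. CAGAC was found in Id3, 167 bases before the start site and, on the other strand, 68 bases before it, and in Grem1 at 219 bases. Bmp4 and Bmper had neither. The motifs do not overlap one another. Over 32851 mouse promoters cut to the same length, 9.59% held GGCGCC and 42.2% held CAGAC, against 4 and 2 of the 7 members. CANNTG (N is any base) and its form CAGCTG were also searched for and are not marked above. CANNTG was in 66.2% of the promoters and in 2 of the 7 members, and CAGCTG was in 13% of the promoters and in Id2. The 7 member promoters were 62.8% to 75.6% G and C, and the 32851 were not matched for this. GGCGCC is made of G and C alone, so these shares do not tell whether it is enriched. A match describes the letters in this window only, and no binding was measured in these libraries.

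Id1 (gene 15901, chr2:152736251-152737410, plus strand) is the classical direct target of BMP signals. Its level was 16.7, 15.2 and 17.0 CPM in WT-SD and 10.6, 9.54 and 11.04 in WT-TGF. In KO it was 12.3, 15.8 and 12.8 CPM in SD and 9.98, 9.34 and 10.3 with TGF-β. TGF-β separated the libraries in both genotypes, while WT and KO overlapped in both conditions. The fall was 1.57-fold in WT (log2 fold change -0.65, SE 0.086, adjusted p = 6.35e-08 by edgeR) and 1.37-fold in KO (-0.46, SE 0.093, adjusted p = 5.96e-05). By the fit, KO was lower in SD (-0.26, adjusted p = 0.0067), and without KO-SD replicate 1 the value was -0.19 (adjusted p = 0.047). With TGF-β the genotypes differed by -0.07 (95% interval -0.27 to 0.13), and the responses differed by 0.19 (-0.07 to 0.45), neither of which was called.

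Id2 (gene 15902, chr12:25093799-25097140, minus strand) encodes the ID protein that also binds retinoblastoma protein. It had 34.3, 34.4 and 32.2 CPM in WT-SD and 6.07, 6.23 and 6.24 in WT-TGF. In KO it had 17.5, 20 and 17.2 CPM in SD and 2.33, 1.67 and 1.60 with TGF-β, the last from 30 to 43 counts per library. All 4 groups were apart, and Id2 spanned the widest range of the members, from KO-TGF up to WT-SD. It fell 5.44-fold with TGF-β in WT (log2 fold change -2.44, SE 0.077, adjusted p = 1.08e-22 by edgeR) and 9.74-fold in KO (-3.28, SE 0.116, adjusted p = 1.95e-21). KO was lower than WT by 1.85-fold in SD (-0.88, adjusted p = 1.78e-13) and by 3.30-fold with TGF-β (-1.72, adjusted p = 1.52e-11). The response was larger in KO, by -0.84 on the log2 scale (SE 0.166, adjusted p = 0.000219 by edgeR).

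Id3 (gene 15903, chr4:136143497-136145755, plus strand) was the most abundant ID gene per length in every group, at 51.3 ± 2.73 RPKM (SD, n = 3) in WT-SD and 22.5 ± 1.12 in KO-TGF. It had 94.2, 86.2 and 95.1 CPM in WT-SD and 50.1, 52.5 and 46.1 in WT-TGF. In KO it had 68.7, 84.1 and 83.0 CPM in SD and 38.8, 42.6 and 39.6 with TGF-β. The groups did not overlap, though the second WT-SD library and the second KO-SD library were close. Id3 fell 1.85-fold in WT (log2 fold change -0.89, SE 0.057, adjusted p = 9.64e-15 by edgeR) and 1.95-fold in KO (-0.96, SE 0.062, adjusted p = 6.63e-15), and the difference of -0.07 between the responses was not called (95% interval -0.25 to 0.10). KO was lower than WT by -0.22 in SD (adjusted p = 0.0007 by edgeR), which was -0.14 without KO-SD replicate 1 (adjusted p = 0.00628), and by -0.30 with TGF-β (adjusted p = 0.00025).

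Id4 (gene 15904, chr13:48261228-48266026, plus strand) encodes a member of the family that can also hold back the other ID proteins. It had 12.1, 13.8 and 12.3 CPM in WT-SD and 6.83, 7.03 and 5.84 in WT-TGF. In KO it had 3.18, 4.02 and 2.98 CPM in SD and 3.42, 3.08 and 2.50 with TGF-β, from 47 to 83 counts per library. The KO groups overlapped each other and lay below both WT groups. Its genotype difference in SD was larger in value than its response to TGF-β in WT, the reverse of the other ID genes: KO-SD was 3.77-fold below WT-SD (log2 fold change -1.91, SE 0.115, adjusted p = 4.00e-15 by edgeR), and the fall with TGF-β in WT was 1.94-fold (-0.95, SE 0.101, adjusted p = 7.73e-10). In KO the response was -0.18 (95% interval -0.51 to 0.15) and not called, though with library size alone as the scaling it was called at -0.39 (adjusted p = 0.028). The responses differed by 0.78 (SE 0.193, adjusted p = 0.0025 by edgeR), opposite in sign to Id2, and KO-TGF was 2.20-fold below WT-TGF (-1.13, adjusted p = 3.89e-08). Exons of Id4 share 82 bases with A330033J07Rik on the opposite strand and those of Bmp4 89 bases with Gm15217, and the counting used strand.

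Summed per length, the 4 ID genes were at 82.5 ± 3.04 RPKM (SD, n = 3) in WT-SD, 40.9 ± 1.35 in WT-TGF, 64.0 ± 6.50 in KO-SD and 32.6 ± 0.649 in KO-TGF. Id3 made up 62.2% ± 1.08 of the sum in WT-SD and 69.1% ± 2.04 in KO-TGF. The share of Id2 was 16.8% ± 1.10 in WT-SD, 11.7% ± 0.913 in KO-SD, 6.21% ± 0.26 in WT-TGF and 2.36% ± 0.539 in KO-TGF, so the make-up of the family shifted away from Id2. The share of Id1 went the other way, from 17.0% ± 0.422 in WT-SD to 26.2% ± 1.78 in KO-TGF. The share of Id4 was 4.03% ± 0.452 and 4.17% ± 0.272 in the WT groups and 1.38% ± 0.165 and 2.39% ± 0.375 in the KO groups.

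The E proteins that ID proteins bind, Tcf3, Tcf4 and Tcf12, were higher in KO than in WT in SD, by 0.29, 0.33 and 0.24 on the log2 scale, and all 3 were called. With TGF-β, KO was higher by 0.14, 0.20 and 0.27, which came to 0.00, 0.06 and 0.14 with library size alone as the scaling, where Tcf3 was no longer called. In WT their responses to TGF-β of 0.10, 0.15 and 0.20 were called with TMM, but with library size alone they came to -0.09, -0.04 and 0.01, the latter pair not called, so no direction is given. The ratio of summed E protein RPKM to summed ID RPKM does not depend on the scaling. It was 0.474 ± 0.00807 (SD, n = 3) in WT-SD, 0.748 ± 0.0702 in KO-SD, 1.05 ± 0.0138 in WT-TGF and 1.5 ± 0.0242 in KO-TGF, and the groups did not overlap.

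The rest of the BMP branch was read from a list of 70 pathway genes, the members included, of which 63 had a count and 45 were tested. With TGF-β, 16 were higher and 24 lower in WT and 15 were higher and 20 lower in KO, where 39.3% and 33.4% of all genes tested were in WT and 36.4% and 37.8% in KO. In KO against WT, 18 were higher and 20 lower in SD and 15 were higher and 20 lower with TGF-β, against 35.6% and 21.6% of all genes and 28.9% and 26.3%. With library size alone as the scaling, the splits were 11 and 31, 11 and 29, 13 and 20, and 9 and 26 in the same order, where the shares of all genes were 22.9% and 52.5%, 19.9% and 58.2%, 21.2% and 36.4%, and 14.2% and 46.9%. Without the members, 37 genes were left, of which 15 were higher and 18 lower in WT with TGF-β, with a median log2 fold change of -0.03 against 0.03 for all genes tested. In KO with TGF-β, 14 of them were higher and 14 lower (median -0.03 against -0.01). In KO against WT, 17 were higher and 13 lower in SD (0.07 against 0.05). With TGF-β these were 15 and 14 (-0.01 against 0.01), so between genotypes the larger number lower was not seen without the members.

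**Figure D4:**
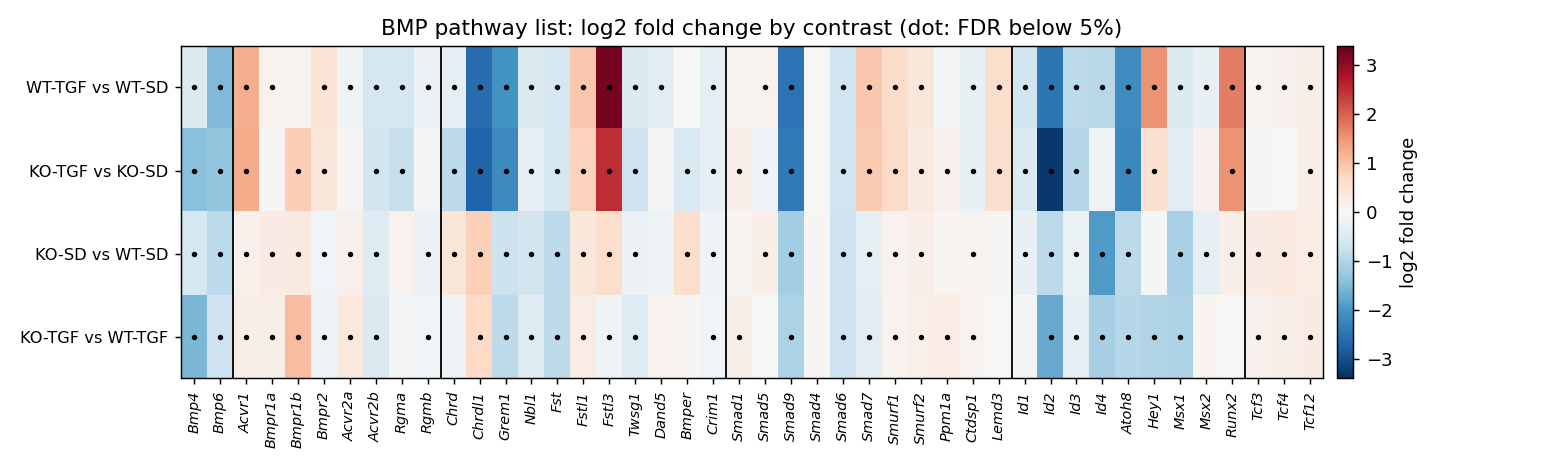
Log2 fold change (color, red higher and blue lower) of 44 of the 45 BMP pathway genes tested in 4 contrasts (rows), ordered by role from left to right: ligands, receptors, antagonists and modulators, SMADs and their regulators, targets, and E proteins. Dots mark FDR below 5% by edgeR. Id2, Grem1, Chrdl1, Smad9 and Atoh8 are blue in both TGF-β rows, and Fstl3, Acvr1 and Runx2 are red.

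Among the SMADs, Smad9, a receptor-activated SMAD of the BMP branch, fell from 24.1 ± 0.472 to 4.23 ± 0.216 CPM in WT, and in KO from 10.6 ± 0.578 to 2.01 ± 0.221 (5.70-fold and 5.28-fold, adjusted p = 2.47e-22 and 7.78e-18 by edgeR). It was also lower in KO than in WT, by -1.18 in SD and -1.07 with TGF-β on the log2 scale (adjusted p = 1.15e-15 and 1.68e-07). Smad9 passed the RPKM limit through the SD groups, in which it was high (means of 4.50 RPKM in WT-SD and 1.98 in KO-SD). The inhibitory SMADs parted. Smad6, which mainly restrains BMP receptors and is itself a BMP target, had log2 fold changes with TGF-β of -0.67 in WT and -0.68 in KO, both called. Smad7, which TGF-β switches on and which restrains both branches, rose by 0.91 and 0.88 on the same scale, and both genes were lower in KO in each condition at FDR below 5%. Smad4, the shared partner, passed the threshold in none of the 5 contrasts with TMM scaling, and was called lower with library size alone in both responses to TGF-β (-0.21 in WT and -0.24 in KO) and in KO with TGF-β (-0.09).

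Of 14 BMP-SMAD targets listed, with the ID genes, Smad6, Smad7 and Smad9 among them, 12 were tested. In WT, TGF-β lowered 9 and raised 3, where 33.4% of all genes tested were lower and 39.3% higher, and in KO it lowered 6 and raised 3, where 37.8% and 36.4% were. KO was lower for 10 and higher for 1 in SD, against 21.6% and 35.6% of all genes. With TGF-β it was lower for 9, against 26.3%, while the other 3 passed in neither direction. Atoh8, a BMP-induced transcription factor gene, fell in both genotypes, from 37.1 ± 1.61 CPM in WT-SD to 8.63 ± 0.514 in WT-TGF and from 19.9 ± 0.573 in KO-SD to 4.38 ± 0.478 in KO-TGF (adjusted p = 9.91e-23 and 5.66e-20 for TGF-β by edgeR). Msx1, a homeobox gene, was lower in KO by 2.16-fold in SD and by 2.07-fold with TGF-β (adjusted p = 2.58e-07 and 1.28e-05 by edgeR). It passed the RPKM limit through WT-SD, the group in which it was highest (mean of 1.32 RPKM). Runx2, which drives bone formation, and Hey1, also a Notch target, rose with TGF-β instead. Runx2 rose 3.32-fold in WT and 2.86-fold in KO, and Hey1 rose 2.87-fold in WT and 1.47-fold in KO, with a smaller response in KO (difference -0.96, adjusted p = 0.0025 by edgeR). The rise of Hey1 in KO was no longer called with library size alone (0.34, adjusted p = 0.085). Hey1 passed the RPKM limit through WT-TGF, the group in which it was highest (mean of 1.73 RPKM).

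For each member, the genes outside the list with the most similar pattern were found as the smallest root mean square difference of centred log2 CPM over the 12 libraries, among 11434 genes. Bmper had Cdk2 (0.0791) and G2e3 (0.047), and Bmpr2 had Clcn4 (0.0495) and Rnmt (0.054). Id1 was closest to Bicdl1 (0.085) and Tsen54 (0.0995), and Id3 to Hoxd4 (0.0762) and Slc25a42 (0.0785). For Bmp4 they were Mylip (0.0988) and Cyp1b1 (0.102), and for Grem1 Atp1b1 (0.185) and Slc7a4 (0.194). Id2 was followed by Enpep (0.181), the gene of a membrane aminopeptidase, and Stxbp6 (0.204). The closest to Id4 were Nap1l3 (0.236) and Podxl (0.256), the second of which is also on the podocyte list. The least of these differences belonged to members that varied least, since the root mean square of the pattern itself was 0.256 for Bmper and 1.57 for Id2.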

How the data were processed

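Gene counts of 12 mRNA libraries were used. Per the paper's methods and the labels, the authors used TopHat to align single-end reads of 51 bp to mm10 and HTSeq-count to count them by RefSeq gene, with strand and a minimum alignment quality of 10. The deposited values are whole-number counts, without normalization. Reads assigned to no gene (10.3% to 15.4% outside exons, 11.2% to 11.7% with several alignments and 0.225% to 0.274% ambiguous) were left out of library sizes and tests.

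Counts were scaled by TMM and tested with edgeR 4.0.16 (R 4.3.3), by the quasi-likelihood test with Benjamini-Hochberg adjustment over 11479 genes with RPKM above 1 in at least 1 library, in 1 fit of 4 group means. Called means FDR below 5%. Exon lengths were taken from GENCODE vM21 (24415 genes by symbol, 309 by older symbol, 506 without). Genes under the limit come from a fit that included every gene with any count, and so do the values of Rian and Mirg. Besides Id2, Id4 and Grem1, the genes Bmpr1b, Chrdl1, Smad9, Msx1 and Hey1 passed only through groups in which they were high. The counts over lists include these genes. Log2 CPM used a prior count of 2. Standard errors and 95% intervals come from the fit, and the floor of 3 counts (0.14 CPM) covers counting error only.

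All 9 members are named. Of other pathway genes, up to 3 per role and contrast with the largest change among those called with fold above 2 are named, and the similar genes are the 2 closest to each member. Further pathway genes (Bmp2, Bmp7, Nog, Smad4, Smad6, Smad7 and the E proteins) were chosen after their values were seen. A result that meets the rule for 1 pathway gene is not reported here. The members and lists were chosen with earlier results of these data known.

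Alternatives were scaling by library size, DESeq2 1.42.0 without independent filtering, CPM above 1 in at least 3 libraries, no filter, only the groups compared, a replicate block and each library left out.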

Additional observations from a re-analysis of the deposited data

Results flagged for a closer look

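The response to TGF-β differed between the genotypes for 4 of the 8 members tested, by the interaction term of the edgeR fit with 3 libraries per group. Of all genes tested, 7.69% had a positive and 18.7% a negative difference at FDR below 5%, against 1 and 3 members.

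For Bmp4 the response in KO minus that in WT was -0.95 on the log2 scale (adjusted p = 8.22e-15 by edgeR), with a fall in both genotypes. For Id2 it was -0.84 (adjusted p = 0.000219), also with a fall in both. For Bmper it was -0.55 (adjusted p = 1.38e-10), where KO-SD was the group that stood apart. For Id4 it was 0.78 (adjusted p = 0.00249), where the KO groups were both low.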

How the results depend on the processing

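Members and pathway genes called in each direction kept their number within 1.5 times under 353 combinations of result and alternative, and 3 moved. Members higher in KO under SD came to 2 with the CPM filter and 2 with no filter, since Bambi was then tested, and pathway genes higher in KO with TGF-β fell from 15 to 9 with library size alone as the scaling. Of the members' fold changes, 710 kept direction and call. With library size alone, the response of Bmper in WT turned to -0.17 and that of Id4 in KO became called at -0.39, and the 8 lost calls were all that of Bmpr2 in KO-SD against WT-SD, with DESeq2 (-0.13) and without 1 of 7 libraries (-0.05 to -0.09). The cause was not tested.

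Scaling by library size moved the median of all genes by -0.19 and -0.22 in the TGF-β responses of WT and KO, -0.11 and -0.13 between genotypes in SD and with TGF-β, and -0.03 in the interaction. The genes called higher and lower then came to 22.9% and 52.5%, 19.9% and 58.2%, 21.2% and 36.4%, 14.2% and 46.9%, and 5.95% and 23.0%.

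Over 18 pairs of libraries with the same replicate number, the correlation of their deviations ran from -0.047 to 0.077 and none passed 0.1. Yet 9 of the 12 libraries correlated best with their own number, so whether the numbers mark a weak pairing cannot be told. With the replicate block, members called were 1 higher and 6 lower in WT with TGF-β, as without it, and pathway genes higher in KO-SD came to 19 against 18. Depth limits Bambi, Grem1 and Id2 in KO-TGF, which rest on 25 to 43 counts per library.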
